A study of Mus musculus with 12 samples.

Results

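The genes described here form the hepatic pathway from the ligand Bmp6 to hepcidin, with the receptors, the carrier and the exporter that hepcidin and iron act on. They are 10 genes, Bmp6, Hamp, Hamp2, Id1, Smad6, Smad7, Tfr2, Tfrc, Trf and Slc40a1, among 18193 genes that the array measures with an own probe set. Bmp6 was chosen by its log2 signal, which rose after the drug in these same livers, so its values are given as a description with no test. The other genes were chosen as the known pathway around it, but with earlier results of these data known, as were the gene lists used below. Their calls and shares are therefore not independent of these data. The question asked of the other genes was whether the rise of the ligand was followed by its target genes. Every probe set annotated to 1 of these genes and to no other was used. There were 16 such probe sets for 9 genes, and 7 genes passed the low-signal filter (at least 3 arrays over a log2 signal of 5) and were tested with 8338 genes in all. Id1 and Smad6 did not pass, and the only probe set of Trf, the plasma iron carrier transferrin, is annotated to a second gene, Srprb, too, so no value is given for it.

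BMP6 is a secreted ligand of the bone morphogenetic protein family that liver sinusoidal endothelial cells make in response to iron. It acts on BMP receptors and the co-receptor hemojuvelin of hepatocytes, whose SMAD1, SMAD5 and SMAD8 proteins are phosphorylated, join SMAD4 and switch on the hepcidin gene together with Id1, Smad6 and Smad7, the last 2 being feedback inhibitors of the signal. Hepcidin then binds ferroportin, the iron exporter encoded by Slc40a1, and has it degraded, which lowers the flow of iron into plasma. In mice Hamp encodes the hepcidin that controls iron, while Hamp2 is its duplicate and has not been shown to do so.

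Liver RNA of 12 male mice aged 9 weeks was measured on 1 Affymetrix array per liver. Knockout mice (CKO) were of the genotype Albumin-Cre:Keap1(flox/-), with Cre driven in hepatocytes, and lacked in those cells Keap1, the adaptor that marks the transcription factor Nrf2 for degradation. Control mice (WT) were Alb-Cre:Keap1(flox/+), so both genotypes carried Cre and a floxed allele, and the null allele of CKO mice was present in every cell type, among them the endothelial cells that make BMP6. The floxed allele of WT mice can be lost in hepatocytes too, which leaves the + allele alone there. WT therefore names the control group and not an intact wild type, and how far that allele was lost was not tested. The strain given is C57BL/6J. Each genotype was gavaged once with vehicle or with 30 umol/kg of CDDO-Im, a synthetic triterpenoid and Nrf2 activator, and killed 6 h later. The 4 groups held 3 mice each, so the number of arrays limits the precision. Values are log2 signals, on which 1 unit is a doubling. Signals of different probe sets cannot be set against each other, and the lowest value on any array was 2.22.

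Keap1 itself followed the labels. On its dimmer probe set the log2 signal was 8.17, 7.92 and 7.94 in WT vehicle livers, 8.46, 8.89 and 8.66 in drug-treated WT livers, 2.87, 2.74 and 2.76 in vehicle-treated CKO livers and 3.31, 3.09 and 2.90 in drug-treated CKO livers. All 6 CKO livers lay more than 4 units below all 6 WT livers. The second Keap1 probe set was lower by 0.68 in CKO vehicle than in WT vehicle (limma, adjusted p = 0.0712). After CDDO-Im it was lower by 1.57 in CKO than in WT livers (0.00553, and 0.0523 with the replicate number as a block). With the drug in WT liver it rose by 0.84 (0.0478). That call was lost with no filter, on the 2 groups alone and with the block. The dimmer probe set rose by 0.66 (0.0250 among probe sets). Whether either probe set lies in the deleted part was not stated in the sources used here. Of 5 classical Nrf2 targets, 4 were called up with Keap1 deletion under vehicle and 5 with CDDO-Im in WT liver. The shares of all tested genes called in these comparisons were 6.51% and 3.65%. Nqo1, a quinone reductase, rose by 4.86 with deletion and by 3.45 with the drug. Over the 12 livers the summed signal of 12 hepatocyte markers, which the brightest of them dominate, stayed between 18.87 and 18.96 on the log2 scale. One of the 12 was called, Tdo2, a tryptophan-degrading enzyme, which rose by 0.34 both with Keap1 deletion under vehicle (limma, adjusted p = 0.0182, lost in 3 of 12 fits that left out 1 liver, up to 0.0625 without WT vehicle replicate 1) and with CDDO-Im in WT liver (0.0294, lost in 5, up to 0.104 without WT CDDO-Im replicate 4). Called in at least 1 of the 6 comparisons were 8.33% of these 12 markers and 9.83% of all tested genes. CKO vehicle replicate 3 stood apart in Lcn2, an acute-phase and neutrophil gene, at 13.35 against 6.22 to 9.95 in the other 11 livers.

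The ligand Bmp6 was high in every liver of a drug-treated mouse. Its single probe set gave log2 signals of 5.64, 6.51 and 5.96 in WT vehicle livers, 8.63, 8.51 and 8.50 in drug-treated WT livers, 7.12, 6.96 and 6.33 in vehicle-treated CKO livers and 8.06, 8.27 and 8.78 in drug-treated CKO livers. The 6 livers after CDDO-Im all lay above the 6 livers after vehicle, with a gap of 0.94 between the lowest of the former (8.06) and the highest of the latter (7.12). Group means were 6.04 ± 0.44 in WT vehicle, 8.55 ± 0.07 in WT CDDO-Im, 6.80 ± 0.42 in CKO vehicle and 8.37 ± 0.37 in CKO CDDO-Im (SD, n = 3). The difference between drug and vehicle was 2.51 in WT liver, a ratio of 5.70, and 1.57 in CKO liver, a ratio of 2.97. The mean of CKO vehicle exceeded that of WT vehicle by 0.76, a ratio of 1.70, but CKO vehicle replicate 5 lay within the range of WT vehicle. Ordered by mean, WT CDDO-Im and CKO CDDO-Im stood next to each other with overlapping livers, CKO vehicle came below them, and CKO vehicle and WT vehicle overlapped. In whole liver, more cells of a type and more RNA per cell cannot be told apart.

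Endothelial markers are given beside Bmp6 because endothelium is its main known source. All 16 listed markers had a probe set and 15 passed the filter, and none stayed under a log2 signal of 3 on all arrays. Their summed log2 signal ran from 12.92 to 13.14 in WT vehicle livers, 12.77 to 13.03 in drug-treated WT livers, 12.86 to 13.01 in vehicle-treated CKO livers and 12.79 to 13.21 in drug-treated CKO livers. These ranges overlapped in all 4 groups, but the brightest markers weigh most in such a sum. One marker of the 15 (6.67%, against 3.65% of all tested genes) was called in WT liver after the drug, Lyve1, a hyaluronan receptor of sinusoidal and lymphatic endothelium, which rose by 2.57 ± 0.46 (limma, SE, adjusted p = 0.015), a call lost without WT vehicle replicate 2 (adjusted p = 0.0561) or WT CDDO-Im replicate 4 (0.0701). In the same comparison 4 other markers were lower at an unadjusted p under 0.05 and were not called, Kdr by -0.53 (adjusted p = 0.160), Stab2 by -0.53 (0.214), Gpr182 by -0.46 (0.179) and Ptprb by -0.39 (0.163). The part of Lyve1-expressing cells in the Bmp6 difference was not tested.

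The promoter of Bmp6 is shown because its drug-treated and vehicle livers did not overlap. The 250 bases before its RefSeq start (GRCm38.p6, chr13:38345466-38345715, plus strand) were searched on both strands for 3 sequence cores, with matches in capitals. These were the antioxidant response element core TGACNNNGC, to which Nrf2 binds with small MAF proteins, the BMP-responsive element core GGCGCC and the STAT core TTCNNNGAA.
Bmp6: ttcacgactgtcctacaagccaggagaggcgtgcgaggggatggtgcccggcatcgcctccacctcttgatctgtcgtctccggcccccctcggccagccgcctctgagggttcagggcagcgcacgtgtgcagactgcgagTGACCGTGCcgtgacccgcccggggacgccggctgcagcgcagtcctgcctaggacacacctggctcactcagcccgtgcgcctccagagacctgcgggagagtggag
The window held 1 TGACNNNGC match, whose first base lay 108 bases before the start, and no GGCGCC or TTCNNNGAA. TGACNNNGC was found in 10.2% of 32536 RefSeq promoter windows of the same length, so a match of this kind is frequent and describes letters only.

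No change of hepcidin was called. The brighter probe set of Hamp gave 14.66, 14.58 and 14.69 in WT vehicle livers, 14.80, 14.93 and 14.73 in drug-treated WT livers, 14.71, 14.83 and 14.01 in vehicle-treated CKO livers and 14.89, 14.14 and 14.92 in drug-treated CKO livers. In WT mice the 3 drug livers lay above the 3 vehicle livers, as did or fell below 23.3% of all tested genes, while in CKO mice the groups overlapped, each with 1 low liver. The change with CDDO-Im was 0.18 ± 0.24 in WT liver (limma, SE, 95% interval -0.35 to 0.70, adjusted p = 0.736) and 0.13 ± 0.24 in CKO liver (-0.39 to 0.66, adjusted p = 0.894). The SE is shared by all groups, whose SD was 0.06 and 0.10 in the WT groups and 0.44 and 0.45 in the CKO groups. Fitted on the 2 WT groups alone, the drug change of Hamp had an adjusted p of 0.326. Averaged over both genotypes it was 0.16, with an interval from -0.21 to 0.53 (adjusted p = 0.663). That interval ends at 0.53, and the Bmp6 means differed by 2.04 in the same averaged comparison, on another probe set. How large a Hamp change would follow such a Bmp6 difference at 6 h was not tested. Keap1 deletion changed Hamp by -0.13 under vehicle (-0.65 to 0.39, adjusted p = 0.797) and by -0.17 under CDDO-Im (-0.70 to 0.35, adjusted p = 0.759). The second Hamp probe set gave 14.52, 14.51 and 14.64 in WT vehicle and 14.68, 14.83 and 14.68 in WT CDDO-Im, which did not overlap either, and a change of 0.17 (adjusted p = 0.700 among probe sets). Its low livers were the same, CKO vehicle replicate 5 at 14.06 and CKO CDDO-Im replicate 3 at 14.12. Hamp signals lay near the top of the arrays, whose highest values were 16.7 to 17, and whether a rise is compressed there was not tested.

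The duplicate Hamp2 was more variable than Hamp in WT vehicle, WT CDDO-Im and CKO vehicle livers. In CKO CDDO-Im the SD was 0.29 for Hamp2 and 0.45 for Hamp. Its usable probe set gave 13.12, 12.69 and 12.61 in WT vehicle livers, 13.22, 13.61 and 12.81 in drug-treated WT livers, 12.53, 13.86 and 11.66 in vehicle-treated CKO livers and 13.37, 12.87 and 13.37 in drug-treated CKO livers. Drug and vehicle livers overlapped in both genotypes, and both the highest and the lowest liver of the series belonged to CKO vehicle. The change with the drug was 0.41 ± 0.45 in WT (-0.59 to 1.41, adjusted p = 0.669) and 0.52 ± 0.45 in CKO (-0.48 to 1.52, adjusted p = 0.753). Without CKO vehicle replicate 4 the latter was 1.11 and without CKO vehicle replicate 5 it was 0.0052, and neither was called. The other Hamp2 probe set lay at the lowest array value, 2.22, on all 12 arrays. The usable Hamp2 probe set and the brighter Hamp one are of the kind whose probes can match more than 1 transcript, and whether each reads both copies was not tested.

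The promoters of the hepcidin pair are shown because Hamp is the direct target through which Bmp6 controls iron and Hamp2 is its near copy. Each line holds 250 bases before the RefSeq start in GRCm38.p6 on the minus strand, Hamp at chr7:30944030-30944279 and Hamp2 at chr7:30924182-30924431, with GGCGCC and TTCNNNGAA matches in capitals.
Hamp: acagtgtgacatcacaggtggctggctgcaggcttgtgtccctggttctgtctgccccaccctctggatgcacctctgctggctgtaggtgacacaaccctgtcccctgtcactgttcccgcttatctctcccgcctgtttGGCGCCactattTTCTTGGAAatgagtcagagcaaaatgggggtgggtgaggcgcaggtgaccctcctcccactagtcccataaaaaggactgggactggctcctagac
Hamp2: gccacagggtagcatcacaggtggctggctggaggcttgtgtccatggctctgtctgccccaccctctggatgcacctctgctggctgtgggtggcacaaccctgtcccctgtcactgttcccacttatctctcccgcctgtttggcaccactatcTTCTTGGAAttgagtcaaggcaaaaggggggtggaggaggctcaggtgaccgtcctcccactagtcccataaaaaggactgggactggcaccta
Hamp held 1 GGCGCC match 109 bases and 1 TTCNNNGAA match 97 bases before its start, the letters of the elements through which BMP and interleukin-6 signals act on the human hepcidin gene. Hamp2 held the TTCNNNGAA match, at 94 bases, and no GGCGCC. The windows were identical at 227 of 253 aligned columns (89.7%). Within the 6 letters of the BMP core the Hamp2 base differed as G4A, counted from the first base of GGCGCC in Hamp, and the STAT core had 0 differences. GGCGCC was present in 9.65% and TTCNNNGAA in 7.04% of the 32536 windows. Neither hepcidin gene had a TGACNNNGC match.

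**Figure D1:**
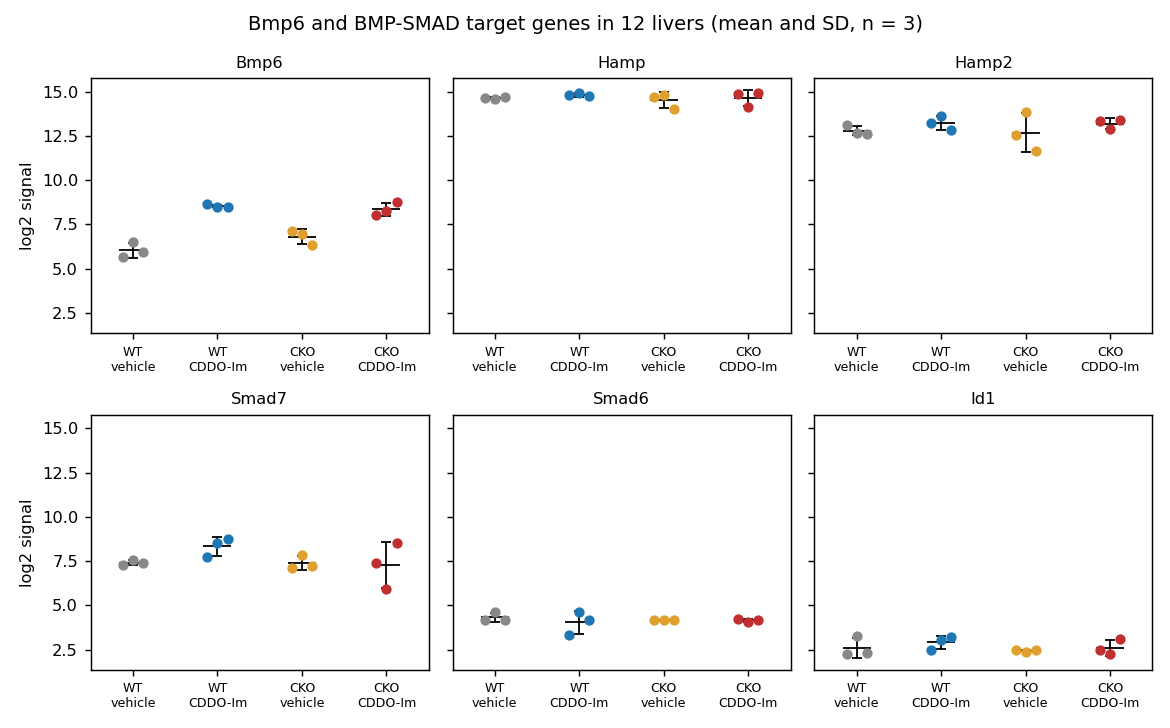
Log2 signal (vertical axis, the same in all panels) of Bmp6 and 5 target genes in WT and CKO livers after vehicle or CDDO-Im; points are livers, and bars are the mean and SD of 3. Bmp6 separates drug from vehicle livers, with 8.06 as the lowest drug value and 7.12 as the highest vehicle value, whereas Hamp stays between 14.01 and 14.93 and Smad6 and Id1 stay below 5.

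The SMAD feedback inhibitor Smad7 was the target with the largest difference in WT liver, and it was not called. Its brighter probe set gave 7.29, 7.56 and 7.39 in WT vehicle livers, 7.74, 8.53 and 8.77 in drug-treated WT livers, 7.09, 7.87 and 7.24 in vehicle-treated CKO livers and 7.42, 5.91 and 8.54 in drug-treated CKO livers. The 3 WT drug livers lay above the 3 WT vehicle livers, and 23.3% of all tested genes did not overlap in this comparison. The CKO drug livers spanned the lowest and nearly the highest value of the series. The change was 0.93 ± 0.54 in WT liver (limma, SE, 95% interval -0.26 to 2.13, adjusted p = 0.379). In CKO liver it was -0.11 ± 0.54 (-1.30 to 1.09, adjusted p = 0.971), and 0.58 without CKO CDDO-Im replicate 3 (adjusted p = 0.67). The difference between the genotypes' drug responses was -1.04 (adjusted p = 0.687), and -0.35 without that liver. The dimmer Smad7 probe set gave 5.36, 5.45 and 5.43 in WT vehicle and 5.43, 5.88 and 5.87 in WT CDDO-Im, a change of 0.31 (adjusted p = 0.508 among all probe sets that passed the filter).

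Smad6 and Id1 were too dim to be tested. Smad6, the second inhibitory SMAD, ran from 3.31 to 4.64, and 7 of its 12 arrays lay within 0.01 of a common value. Id1, a transcriptional inhibitor and an early BMP target, gave 2.25, 3.27 and 2.29 in WT vehicle livers, 2.48, 3.04 and 3.21 in drug-treated WT livers, 2.48, 2.40 and 2.48 in vehicle-treated CKO livers and 2.48, 2.25 and 3.12 in drug-treated CKO livers. These values lie close to the lowest array value and overlapped in all groups, so a rise of Id1 was not measurable with this probe set. Of 6 further BMP-SMAD target genes, Id2 and Id3 passed the filter, and neither was called in any comparison. Id3 gave 7.37, 8.95 and 9.20 in WT vehicle livers, 7.96, 8.89 and 8.81 in drug-treated WT livers, 7.48, 7.87 and 7.56 in vehicle-treated CKO livers and 8.34, 6.54 and 8.49 in drug-treated CKO livers. The vehicle livers of WT mice alone ran from 7.37 to 9.20, and their drug-treated livers lay inside that range. The change of Id3 with CDDO-Im in WT liver was 0.05, with an interval from -1.21 to 1.31 (adjusted p = 0.980), and that of Id2 was -0.30 (adjusted p = 0.750). Atoh8, Bambi, Id4 and Msx2 stayed below the filter.

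One liver was low in several targets at once. CKO CDDO-Im replicate 3 had the lowest Smad7 (5.91), Id3 (6.54) and Id2 (8.28) of the 12 livers and the second lowest Hamp (14.14), at a Bmp6 signal of 8.27, above all vehicle livers. Its Hamp2 signal was not low, at 12.87 beside a median of 12.99 over the 12 livers. CKO vehicle replicate 5 had the lowest Hamp (14.01) and Hamp2 (11.66), at a Bmp6 signal of 6.33.

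The receptors differed from each other in how they varied. Tfr2, the transferrin receptor of hepatocytes that senses iron-loaded transferrin, gave 13.03, 13.04 and 12.81 in WT vehicle livers, 12.98, 12.87 and 13.11 in drug-treated WT livers, 12.94, 12.72 and 12.85 in vehicle-treated CKO livers and 13.08, 12.88 and 12.72 in drug-treated CKO livers. All groups overlapped. Its change with the drug in WT liver was 0.03 (95% interval -0.22 to 0.28, adjusted p = 0.930), and with deletion under vehicle it was -0.12 (-0.37 to 0.13, adjusted p = 0.572). The second Tfr2 probe set ran from 12.54 to 13.05.

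Tfrc, the transferrin receptor for iron uptake by most cells, was higher in most CKO livers without being called. Its brightest probe set gave 10.82, 10.89 and 10.76 in WT vehicle livers, 11.10, 10.96 and 10.99 in drug-treated WT livers, 10.69, 11.81 and 11.30 in vehicle-treated CKO livers and 11.24, 11.70 and 11.59 in drug-treated CKO livers. Among vehicle livers, 2 of the 3 CKO livers lay above all WT livers and 1, replicate 3, lay below them; after the drug all CKO livers lay above all WT livers, as did or fell below 22.7% of all tested genes. The difference between CKO and WT was 0.45 ± 0.23 under vehicle (limma, SE, -0.06 to 0.95, adjusted p = 0.286) and 0.49 ± 0.23 under CDDO-Im (-0.02 to 0.998, adjusted p = 0.313). Without CKO vehicle replicate 3 the difference under vehicle was 0.74 (adjusted p = 0.0477), and without CKO vehicle replicate 4 it was 0.17 (adjusted p = 0.63). A second probe set gave 7.94, 7.96 and 7.96 in WT vehicle and 8.45, 9.97 and 8.83 in CKO vehicle, groups that did not overlap (26.3% of all tested genes), with a difference of 1.13 ± 0.35 (adjusted p = 0.0838). With CDDO-Im in WT liver the brightest probe set changed by 0.20 (limma, adjusted p = 0.687) and the second by 0.56 (0.419 among probe sets). Neither was called, and WT drug and vehicle livers overlapped on neither, as for 23.3% of all tested genes. The third own probe set stayed mostly below the filter, from 3.16 to 6.19. Erythroid markers are given beside Tfrc because red cell precursors use it heavily: 5 of 7 had a probe set and 2 passed the filter, with Hba-a1 and Epb42 under a log2 signal of 3 in all livers. Their summed log2 signal was 11.10 to 11.45 in WT vehicle, 10.92 to 11.38 in WT CDDO-Im, 9.53 to 11.27 in CKO vehicle and 9.98 to 10.56 in CKO CDDO-Im. After the drug it was lower in CKO than in WT livers, but the heme synthesis gene Alas2 dominates this sum. Alas2 was not called between these groups (-0.81, limma, adjusted p = 0.316), and Hbb-b2, the other tested marker, differed by -8e-04. The part of erythroid cells in the Tfrc difference was not tested.

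The exporter Slc40a1 was the one gene called among the 6 tested members other than Bmp6. Its brighter probe set gave 12.87, 12.97 and 13.04 in WT vehicle livers, 13.51, 13.63 and 13.41 in drug-treated WT livers, 13.63, 13.53 and 13.66 in vehicle-treated CKO livers and 13.66, 13.57 and 13.42 in drug-treated CKO livers. WT vehicle stood below the other 3 groups, which overlapped one another. Slc40a1 rose by 0.65 ± 0.09 with Keap1 deletion under vehicle (limma, SE, 95% interval 0.45 to 0.85, 1.57-fold, adjusted p = 0.00256) and by 0.56 ± 0.09 with CDDO-Im in WT liver (0.36 to 0.76, 1.47-fold, adjusted p = 0.00851). Both comparisons use the same 3 WT vehicle livers. In CKO liver the drug changed it by -0.06 (-0.25 to 0.14, adjusted p = 0.880), and under the drug the genotypes differed by 0.03 (adjusted p = 0.892). The genotype difference in drug response was -0.62 ± 0.12 and was not called (adjusted p = 0.0885). Its second probe set gave 11.55, 11.81 and 12.06 in WT vehicle and 12.65, 12.80 and 12.44 in WT CDDO-Im, and rose by 0.95 with deletion (adjusted p = 0.00378) and by 0.82 with the drug (adjusted p = 0.0114). Both calls of the brighter probe set held in all 12 fits that left out 1 liver, with adjusted p up to 0.0147 for deletion and 0.0338 for the drug. Fitted on the 2 groups alone, the drug change in WT liver was lost (adjusted p = 0.0597).

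Macrophage markers are given beside Slc40a1 because Kupffer cells, the liver's macrophages, export the iron of red cells through ferroportin. All 11 had a probe set and 9 passed the filter, with none under a log2 signal of 3 on all arrays. Their summed log2 signal was 13.01 to 13.95 in WT vehicle, 13.47 to 13.63 in WT CDDO-Im, 13.38 to 13.97 in CKO vehicle and 13.42 to 14.01 in CKO CDDO-Im, ranges that overlapped. Here too the brightest markers weigh most. Marco, a scavenger receptor, rose by 2.30 ± 0.46 with deletion under vehicle (limma, SE, adjusted p = 0.0151, and 0.0658 without CKO vehicle replicate 3), and the other 8 were not called. Whether the cells that express Marco have a part in the Slc40a1 change was not tested.

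**Figure D2:**
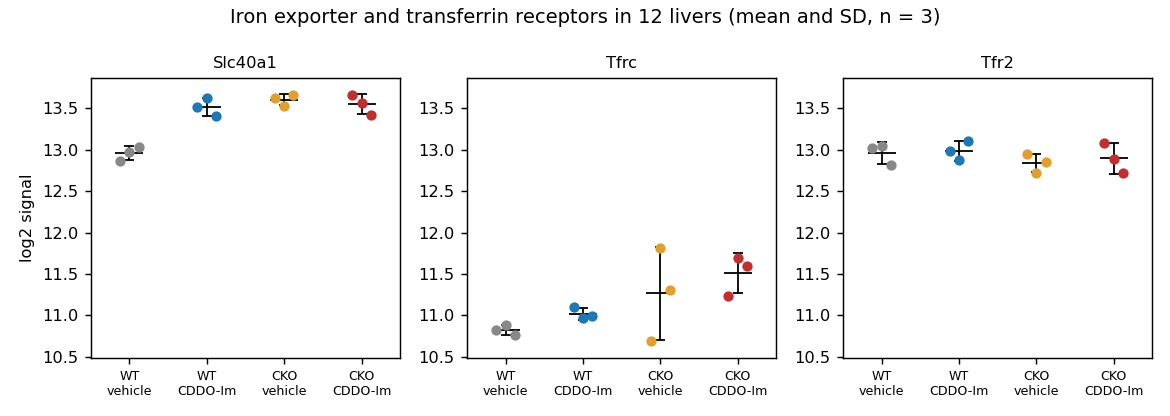
Log2 signal (vertical axis, the same in all panels, not starting at 0) of the exporter Slc40a1 and the transferrin receptors Tfrc and Tfr2 in the 4 groups; points are livers, and bars are the mean and SD of 3. Slc40a1 is between 12.87 and 13.04 in WT vehicle and at or above 13.41 in all other livers, and Tfr2 stays between 12.72 and 13.11.

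Counted over the 6 tested genes other than Bmp6, 1 was called with Keap1 deletion under vehicle, where 6.51% of all tested genes were called, and 1 with CDDO-Im in WT liver, where 3.65% were called. The called gene was Slc40a1 both times. None of the 6 was called with CDDO-Im in CKO liver, where 0% of all genes were called in the limma fit and 9.47% had an unadjusted p under 0.05, nor did any of the 6 reach that unadjusted level. None was called for Keap1 deletion under CDDO-Im (1.54% of all genes called, and 0 of the 6 against 16.8% of all genes with an unadjusted p under 0.05). For the drug averaged over genotypes 2.46% of all genes were called and none of the 6, with 1 of them, Slc40a1, at an unadjusted p under 0.05, as were 19% of all genes. For the interaction these were 0.276%, none and 1, again Slc40a1, against 10.3% of all genes at that unadjusted level. These shares rest on 6 genes, and the intervals of Hamp2 and Smad7 leave changes of more than 1 log2 unit possible.

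**Figure D3:**
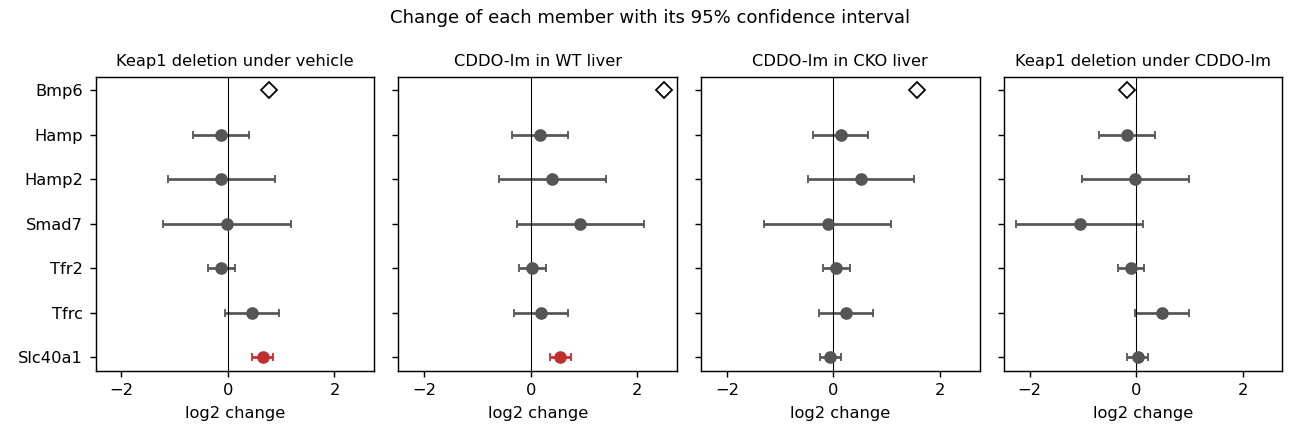
Log2 change (horizontal axis) of each tested gene in 4 comparisons; circles are limma estimates with 95% intervals, red where called and grey where not, and the open diamond is the difference of the Bmp6 means, which was not tested. With CDDO-Im in WT liver Bmp6 differs by 2.51, Hamp changes by 0.18 and Slc40a1 by 0.56.

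The rest of the pathway was read from 6 lists of 78 genes, of which 75 had a probe set and 54 were tested. With Keap1 deletion under vehicle 3 rose and 3 fell (11.1% of the 54, against 6.51% of all genes), and with CDDO-Im in WT liver 3 rose and none fell (5.56%, against 3.65%). With CDDO-Im in CKO liver none was called by limma, with 7 of the 54 and 9.47% of all genes at an unadjusted p under 0.05, and with Keap1 deletion under CDDO-Im 1 rose and 2 fell (5.56%, against 1.54%). These counts include Heph as a gene that rose with deletion, which passed the filter only through CKO livers and so had to differ. The median change of the 54 genes was between -0.07 and 0.03 in these 4 comparisons, against -0.02 to -0.01 for all tested genes.

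Among BMP ligands and antagonists, 4 of 16 genes were tested and Bmp2 rose. Bmp2, a second endothelial ligand that induces hepcidin, gave 7.21, 7.27 and 7.13 in WT vehicle livers, 7.85, 7.92 and 8.08 in drug-treated WT livers, 7.58, 7.65 and 7.44 in vehicle-treated CKO livers and 8.06, 8.09 and 8.36 in drug-treated CKO livers. As for Bmp6, all drug livers lay above all vehicle livers, and the share of all tested genes that separate so was not counted. Bmp2 rose by 0.75 ± 0.10 in WT liver (limma, SE, 1.68-fold, adjusted p = 0.00399) and by 0.68 ± 0.07 averaged over genotypes (adjusted p = 0.00264), and its change of 0.61 ± 0.10 in CKO liver had an adjusted p of 0.225. Bmp5, Gdf2 and Twsg1 were not called in any comparison.

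Of 9 tested BMP receptors and co-receptors, Hfe rose with Keap1 deletion under vehicle, by 0.37 ± 0.08 (limma, SE, adjusted p = 0.0294), a call that was lost in 4 of 12 fits that left out 1 liver (highest adjusted p 0.0786, without CKO vehicle replicate 3). HFE is a partner of TFR2 in iron sensing. Hjv, the hemojuvelin co-receptor, differed by 0.63 with deletion under vehicle (adjusted p = 0.0754) and by -0.64 with the drug in CKO liver (adjusted p = 0.410). Tmprss6, the protease that removes hemojuvelin, stayed between 13.47 and 13.76 and was not called.

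Of 11 tested SMAD mediators and regulators, Smad1, which carries the BMP signal, was called. It gave 8.87, 8.75 and 8.76 in WT vehicle livers, 8.86, 8.69 and 8.62 in drug-treated WT livers, 8.24, 8.09 and 8.34 in vehicle-treated CKO livers and 8.33, 8.31 and 8.23 in drug-treated CKO livers. All 6 CKO livers lay below all 6 WT livers, and the share of all tested genes that separate so was not counted. Smad1 fell by 0.57 ± 0.09 with deletion under vehicle (limma, SE, adjusted p = 0.00495) and by 0.43 ± 0.09 under CDDO-Im (adjusted p = 0.0415, lost in 10 of 12 fits that left out 1 liver, up to 0.128 without WT CDDO-Im replicate 3), while the drug changed it by -0.07 in WT liver (adjusted p = 0.732).

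The interleukin-6 branch, the second input to hepcidin, had 9 tested genes. Il6st, the shared receptor subunit gp130, fell by 0.57 ± 0.14 with deletion under vehicle (limma, SE, adjusted p = 0.0342, lost in 6 of 12 such fits, up to 0.104 without CKO vehicle replicate 5). Jak1, its kinase, fell by 0.41 ± 0.07 with deletion under CDDO-Im (adjusted p = 0.0249, lost in 5, up to 0.0897 without CKO CDDO-Im replicate 3). None of the 9 was called for the drug in WT liver. Il6ra, the ligand-binding receptor subunit, gave 6.82, 5.93 and 7.73 in WT vehicle and 8.05, 7.57 and 8.53 in WT CDDO-Im, which overlapped, and it changed by 1.22 in WT liver (adjusted p = 0.113), by 0.90 in CKO liver (0.515) and by 1.06 averaged over genotypes (0.0677). Stat3, which carries the signal to the Hamp promoter, changed by 0.46 in WT liver (adjusted p = 0.190).

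Of 19 tested genes of iron uptake, storage and heme handling, 4 (21.1%) were called in at least 1 of the 6 comparisons, as were 9.83% of all tested genes. The 4 include Heph, which had to differ because of the filter, as given below, so this share is raised by it. Slc48a1, a heme transporter of lysosomes, rose by 2.01 ± 0.26 with deletion under vehicle (limma, SE, 4.02-fold, adjusted p = 0.00175) and by 1.55 ± 0.26 with CDDO-Im in WT liver (2.93-fold, adjusted p = 0.0107, lost without WT CDDO-Im replicate 4 at an adjusted p of 0.0512). Hmox1, heme oxygenase, rose by 1.47 ± 0.29 with the drug in WT liver (2.78-fold, adjusted p = 0.0219, lost in 4 of 12 fits, up to 0.0854 without WT CDDO-Im replicate 4). Heph, a ferroxidase that works with ferroportin in the gut, gave 2.57, 2.52 and 2.64 in WT vehicle livers, 2.53, 2.59 and 3.23 in drug-treated WT livers, 5.92, 5.38 and 5.71 in vehicle-treated CKO livers and 5.48, 5.34 and 4.16 in drug-treated CKO livers. WT livers lay near the lowest array value and all CKO livers lay above them. Heph passed the filter only through 5 CKO livers, so its difference is described without a test or a fold. Lrp1, a receptor for heme bound to hemopexin, fell by 0.48 ± 0.12 with deletion under vehicle (adjusted p = 0.0337, lost in 7 such fits and highest, 0.112, without WT vehicle replicate 1). The ferritin heavy chain Fth1 changed by 0.22 with the drug in WT liver (adjusted p = 0.119), and the iron regulatory protein genes Aco1 and Ireb2 changed by -0.01 and 0.02 (adjusted p = 0.977 and 0.954).

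The pattern of Bmp6 over the 12 livers was compared with that of 8138 named genes by Pearson correlation, given as a description because livers of a group share their treatment. The 6 most alike were Ampd3 (r = 0.97), which encodes an AMP deaminase, Abcc1 (0.96), a glutathione conjugate exporter, the aldo-keto reductase Akr1b8 (0.95), Bmp2 (0.94), Tmem87b (0.93) and the endothelial adhesion gene Esam (0.92). Among the pathway's own genes the values were 0.61 for Slc40a1, 0.44 for Hamp2, 0.37 for Tfrc, 0.36 for Smad7, 0.34 for Hamp and 0.03 for Tfr2. The mean of Ampd3 went from 3.11 to 5.24 with the drug in WT liver and from 3.66 to 5.07 in CKO liver. Ampd3 and Abcc1 had no vehicle liver over the log2 signal of 5 and entered the comparison only through drug-treated livers, so their likeness to Bmp6 rests in part on the filter and on low signals. The 5 Nrf2 targets differed among themselves in CKO vehicle, which exceeded WT vehicle by 4.86 for Nqo1, 2.25 for Srxn1, 1.17 for Txnrd1, 1.14 for Gclc and, without a call, 0.15 for Gclm (adjusted p = 0.473), against 0.76 for Bmp6. With the drug in WT liver Gclm rose by 1.07 and in CKO liver it changed by 0.27 (adjusted p = 0.515).

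**Figure D4:**
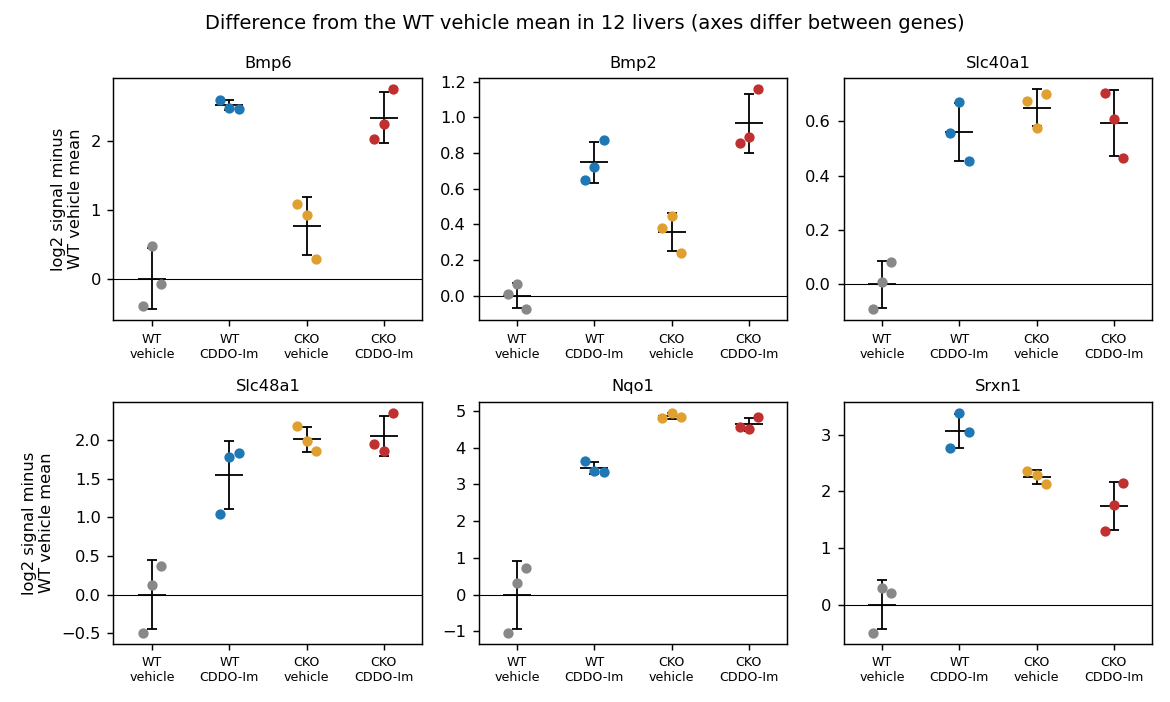
Difference of the log2 signal from the WT vehicle mean (vertical axis, a separate scale in each panel) for Bmp6, Bmp2, Slc40a1, Slc48a1, Nqo1 and Srxn1; points are livers, and bars are the mean and SD of 3. Bmp6 and Bmp2 are highest in the 2 drug groups, whereas Slc40a1, Slc48a1 and Nqo1 overlap between CKO vehicle and CKO CDDO-Im.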

How the data were processed

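Total liver RNA of 12 mice was hybridised to 1 Affymetrix array each. The deposited values are log2 signals of 45101 probe sets that the authors made, per the submitters' processing notes, with GCRMA 2.12.1 run in R 2.7.0, with settings not given in the sources used here. Their scale was checked on the values: array medians were 2.32 to 2.34, and 16494 to 16776 probe sets per array lay at the lowest value. Nothing says whether the mice came from separate litters, so p-values measure the spread between these 3 livers per group. No pair of arrays was identical (0 pairs), and the lowest correlation within a group was 0.996.

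Probe sets were named from the platform's annotation, in which 34945 name 1 gene, 932 name several and 9160 name none; 64 control probe sets were left out. The brightest probe set stood for each gene. Genes with at least 3 arrays over log2 5 were fitted with limma 3.58.1 in R 4.3.3 as 4 group means over all 12 arrays, with Benjamini-Hochberg adjustment over 8338 genes, two-sided, and called at an adjusted p under 0.05. There were 6 comparisons. Single probe sets were tested in a fit of all own probe sets that passed the filter. Fold values are given where both group means were at least 5. The fit was tested on simulated data.

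The 10 genes and the gene lists were chosen with earlier results of these data known. All members and their probe sets were named, with Keap1, the 5 Nrf2 targets, the called genes of each list (at most 2 up and 2 down per comparison), called markers and the 6 genes most like Bmp6. Genes that were not called (Hjv, Tmprss6, Stat3, Il6ra, Kdr, Stab2, Gpr182, Ptprb, Cd5l, Rgs5, Dcn, Id2, Id3, Fth1, Aco1, Ireb2, Bmp5, Gdf2, Twsg1) and Lcn2 were named after their values were seen. Promoters came from RefSeq windows of GRCm38.p6. Alternatives were 2 normalizations, 2 filters, 2 probe set rules, limma with trend and robust, the 2 groups of a comparison alone, each array left out and the replicate number as a block. Same-numbered livers did not deviate together (r over 0.1 in 3 of 12 pairs), so the number was not taken as a pairing.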

Additional observations from a re-analysis of the deposited data

Results flagged for a closer look

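The difference between the genotypes in their response to CDDO-Im was called for 4 Nrf2 targets by the interaction term of the limma fit. It was -3.68 for Nqo1 (adjusted p = 0.0187), -1.54 for Gclc, which encodes a subunit of the glutathione-making ligase (adjusted p = 0.0052), -1.48 for the thioredoxin reductase Txnrd1 (adjusted p = 0.0138) and -3.59 for the sulfiredoxin Srxn1 (adjusted p = 0.0052), all on the log2 scale. With 1 liver left out, the call of Nqo1 was lost in 8 of 12 fits (highest adjusted p 0.0726) and that of Txnrd1 in 3 (0.0643), both highest without CKO CDDO-Im replicate 3, and those of Gclc and Srxn1 held in all 12. With no filter the calls of Nqo1 (adjusted p = 0.106) and Txnrd1 were lost, with the mean of probe sets that of Txnrd1, and with the replicate block those of Txnrd1 (0.167), Gclc (0.0907) and Srxn1 (0.0794). The same term was called for none of the 6 tested pathway genes and for 0.276% of all tested genes, so none of 6 says little. Slc40a1 was at -0.62 (limma, adjusted p = 0.0885). The difference of the Bmp6 responses, -0.94, was not tested.

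The array also carries 3 control probe sets made from the Tfrc transcript, which were in no comparison. The one at its 3' end gave 5.39, 5.54 and 5.69 in WT vehicle livers, 6.08, 5.93 and 6.10 in drug-treated WT livers, 6.03, 6.98 and 6.54 in vehicle-treated CKO livers and 6.29, 6.49 and 7.31 in drug-treated CKO livers. CKO vehicle exceeded WT vehicle by 0.98 there, with no overlap between the livers, as for 26.3% of all tested genes. The excess was 1.02 at the 5' end and 0.61 in the middle, both at signals mostly under 5. These differences were not tested.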

How the results depend on the processing

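No alternative called Hamp, Hamp2, Smad7 or Tfr2 in any comparison, and Tfrc was called in 1, under vehicle without CKO vehicle replicate 3. The averaged drug change of Slc40a1 became a call under median centring, the mean of probe sets, and trend and robust (1 pathway member in place of 0). Its drug change in WT was lost on 2 groups only (0 in place of 1). Bmp6 in WT differed by 2.26 to 2.55 over all alternatives and by 2.31 to 2.75 with 1 liver left out.

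Counts of genes called over the array moved from 543, 304, 0, 128, 205 and 23 (deletion under vehicle, drug in WT, drug in CKO, deletion under drug, averaged drug, interaction) to 232, 124, 1, 29, 67 and 7 with no filter, and with 1 liver left out they were 275 to 537, 106 to 318, 0 to 1, 32 to 139, 101 to 259 and 2 to 31. On 2 groups only they were 223 (deletion under vehicle), 85 (drug in WT) and 56 (deletion under drug). Pathway list genes called moved from 6, 3, 3 and 2 (deletion under vehicle, drug in WT, deletion under drug, averaged drug) to 3, 1, 1 and 1 with no filter, to 3 (deletion under vehicle) and 0 (deletion under drug) on 2 groups only, and to 1 (deletion under drug) under quantile normalization and the mean of probe sets; with 1 liver left out they were 3 to 7, 1 to 4, 0 to 3 and 1 to 2.

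With the replicate block, in which WT vehicle replicate 1 and CKO vehicle replicate 5 are alone at their number and drop out, genes called were 55, 114, 2, 42 and 3 (in the order above, without the averaged drug), list genes called were 0 (deletion under vehicle), 1 (drug in WT) and 0 (deletion under drug), and Slc40a1 lost its deletion call (adjusted p = 0.0613; members called 0). Under the block, uncalled changes turned sign for Hamp (deletion under vehicle 0.12, drug in CKO -0.14), Hamp2 (0.50, -0.0175, interaction -0.51) and Tfr2 (4e-04, interaction -0.0941). Uncalled signs also turned for Hamp2 with deletion under drug (quantile, 0.0171), Smad7 with deletion (median centring, 0.0072) and drug in CKO (mean of probe sets, 0.0376), and the Tfrc interaction (mean of probe sets, -0.23). The causes were not tested.

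With 1 liver left out, ranges that crossed 0 were, for Hamp, deletion -0.29 to 0.13, drug in CKO -0.12 to 0.39, deletion under drug -0.31 to 0.0846 and interaction -0.30 to 0.21; for Hamp2, -0.71 to 0.39 (deletion), -0.21 to 0.185 (deletion under drug) and -0.40 to 0.70 (interaction); for Smad7, -0.25 to 0.14 (deletion) and -0.73 to 0.58 (drug in CKO); for Tfr2, -0.0454 to 0.0872 (drug in WT), -0.0379 to 0.15 (drug in CKO), -0.0046 to 0.0873 (averaged) and -0.0664 to 0.12 (interaction); for Tfrc, -0.0492 to 0.51 (drug in CKO) and -0.25 to 0.31 (interaction); and for Slc40a1, -0.11 to 0.0076 (drug in CKO) and -0.0235 to 0.097 (deletion under drug). With 3 livers per group and a GCRMA floor, small changes and dim genes such as Id1 and Smad6 were beyond what these arrays resolve.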

Other observations

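Lyve1 separated drug from vehicle livers in WT mice on a wider scale than the other endothelial markers. It gave 5.01, 5.49 and 6.77 in WT vehicle livers, 8.25, 7.91 and 8.84 in drug-treated WT livers, 7.67, 7.52 and 8.79 in vehicle-treated CKO livers and 9.93, 9.43 and 9.69 in drug-treated CKO livers. It rose by 2.24 ± 0.46 with Keap1 deletion under vehicle (limma, SE, adjusted p = 0.0177, lost in 3 of 12 fits that left out 1 liver, up to 0.0629 without WT vehicle replicate 1) and by 2.13 ± 0.32 with the drug averaged over genotypes (adjusted p = 0.00928). Stab2, a scavenger receptor of the same endothelium, lay between 8.75 and 9.78.

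Alas2, which makes heme in red cell precursors, was 11.40, 11.19 and 11.03 in WT vehicle and 10.44, 9.31 and 11.19 in CKO vehicle, groups that overlapped through 1 CKO liver. Reln, a marker of stellate cells, fell by 0.51 with deletion under vehicle (limma, adjusted p = 0.0348, lost in 6 of 12 fits that left out 1 liver, up to 0.126 without CKO vehicle replicate 3). It was the 1 called of 7 tested stellate and fibroblast markers, while 6.51% of all tested genes were called. Rgs5 of the same list went the other way, by 0.44 (limma, adjusted p = 0.147), and was not called. The median change of the 7 was 0.01. The summed log2 signal of the 9 stellate and fibroblast markers was 13.27 to 13.32 in WT vehicle and 13.18 to 13.41 in CKO vehicle. The marker Dcn, with means of 12.86 and 12.87 in these groups, dominates this sum, so it says little about the others. Marco was 5.70, 3.95 and 4.95 in WT vehicle and 7.79, 7.34 and 6.38 in CKO vehicle.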
